A study of Mus musculus with 9 samples.

Results

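The comparison described here was between the right ventricle of mice that received monocrotaline (MCT) together with a nutritional intervention (NI) and the right ventricle of sham mice, and it asked which differences from sham were present although the animals ate the intervention diet. It used 6 of the 9 expression arrays of the study, 3 MCT+NI mice (numbers 615, 617 and 619) and 3 sham mice (620, 624 and 625), chosen by their titles, and 18820 genes. All were female C57BL/6 mice that arrived at 8 weeks of age, and injections started at 10 weeks of age. MCT+NI mice were injected subcutaneously with 600 mg/kg MCT every week for 8 weeks and ate a semi-synthetic diet rich in protein, leucine, oligosaccharides and fish oil that was isocaloric to the control diet. Sham mice received saline in the same volume and the semi-synthetic control diet AIN-93M. The remaining 3 arrays came from MCT mice (640, 641 and 644) on AIN-93M, and their values are set beside those of MCT+NI mice. MCT+NI mice thus differed from sham mice both by the injections and by the diet, and since no group received the diet with saline, the parts of the 2 cannot be told apart. The study's supplement also reports a lower cumulative food intake in MCT+NI mice than in sham and MCT mice. The mice of the array groups were selected to match in disease severity, according to the study's methods. The labels place the start of the diets 2 weeks before the first injection, whereas the methods give a shorter time.

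MCT is a plant alkaloid. The liver turns it into reactive pyrroles that bind DNA and proteins and injure the vessels of the lung, after which pulmonary arterial pressure rises and the right ventricle has to work against a greater load. DNA damage stabilises the transcription factor p53, which switches on genes that halt the cell cycle, repair DNA or drive cell death. A loaded ventricle is known to grow, to lay down matrix, to change its capillaries and to move its metabolism away from fatty acids.

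Ventricular muscle genes checked the tissue. Myl2, the regulatory light chain of ventricular myosin, read 12.73, 12.73 and 12.67 in sham mice and 12.75, 12.76 and 12.73 in MCT+NI mice on the log2 intensity scale. Irx4, a transcription factor of ventricular muscle, lay between 7.48 and 7.74 in sham and between 7.51 and 7.91 in MCT+NI mice. Both spans overlapped, so the ventricular signal was alike in the 6 samples. Atrial transcripts were also present and were not alike. A mean of 6 atrial genes (Nppa, Myl7, Myl4, Sln, Bmp10 and Dkk3) read 10.17, 11.05 and 10.95 in sham mice and 9.16, 6.01 and 5.24 in MCT+NI mice 615, 617 and 619. In the MCT mice it was 5.13, 5.50 and 10.69. Of 20 atrial markers measured, none had a positive difference, their median difference was -1.53, and 1 passed the test. Myl7, the atrial myosin light chain, read 10.55, 11.77 and 11.57 in sham mice against 9.79, 5.21 and 3.92, a difference of -4.99 with a 95% interval of -9.93 to -0.05 (adjusted p = 0.252). Atrial signal was therefore lower in all 3 MCT+NI samples, and much lower in 2 of them. In whole tissue, fewer cells of a type and less RNA per cell cannot be told apart. Counts and p-values with the atrial mean as a covariate are given beside the groups and genes whose calls it changed most. Such a loss of calls need not come with a smaller difference, so medians with the covariate are given for some groups too.

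A gene was called when its Benjamini-Hochberg adjusted p from limma was under 0.05. The genes called numbered 1179 (6.26% of those tested), of which 850 (4.52%) were higher and 329 (1.75%) lower in MCT+NI mice. The 3 MCT+NI and 3 sham values did not overlap in 3957 genes (21%), and all 1179 called genes were among them. Rises were larger than falls. The median size was 0.605 on the log2 scale (1.52-fold) for the rises and 0.395 (1.32-fold) for the falls. At least 2-fold were 154 rises and 31 falls, and at least 4-fold 18 rises and 3 falls. The share of rises among the calls was 72.1%, and 53.9% (758 higher, 649 lower) when each array was centred on its own median. Centring moved the median of all genes by -0.05 on the log2 scale, from a median difference of -0.02. With the atrial mean as a covariate, 401 genes were called (335 higher, 66 lower), of which 318 of the rises and 51 of the falls were among the 1179. Without MCT+NI mouse 619, 625 genes were called, and without mouse 615, 682. In each of the 9 fits that leave out 1 mouse, 541 genes (461 higher, 80 lower) kept their call. For many of the genes named below that are not among these, the highest adjusted p of these fits is given with the mouse left out.

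**Figure D1:**
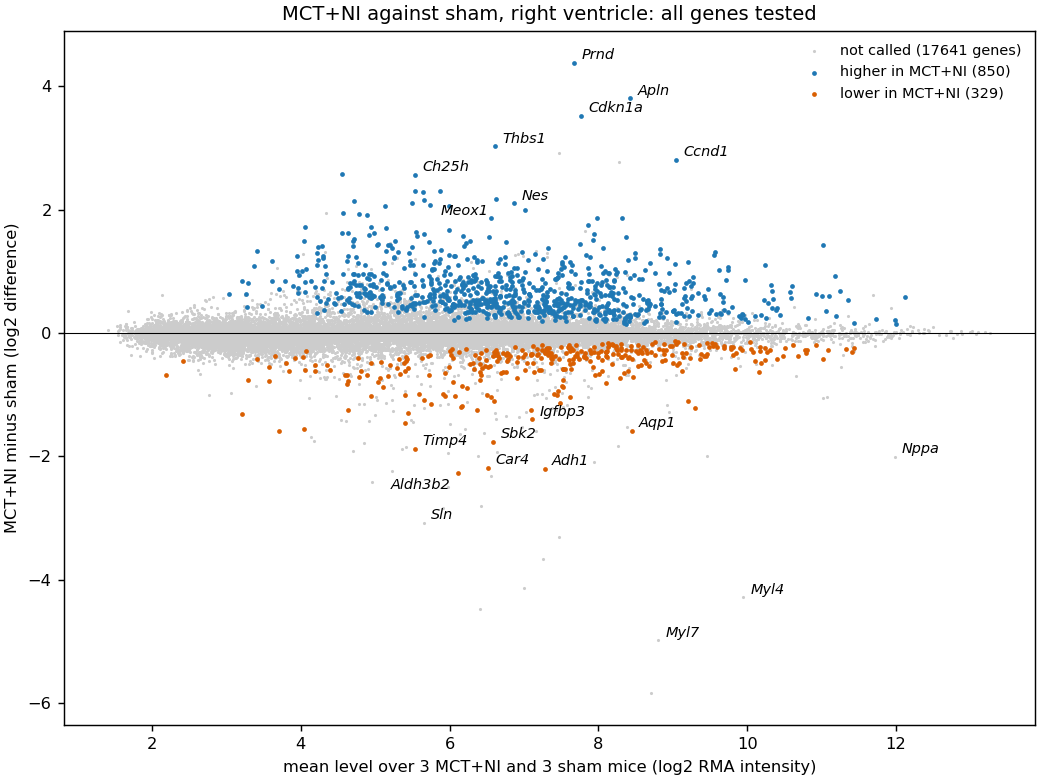
Difference between MCT+NI and sham mice (vertical axis, log2) against the mean level over the 6 samples (horizontal axis, log2 RMA intensity) for 18820 genes, with 850 genes called higher in blue, 329 called lower in orange and all others in grey. Prnd, Apln, Cdkn1a, Thbs1 and Ccnd1 stand apart at the top, and the lowest points are grey atrial genes such as Myl7 (-4.99) and Myl4 (-4.29), whose samples of 1 group spread widely.

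Among called genes whose mean over the 6 samples reached that of the median gene, the 15 with the largest rise and the 15 with the largest fall are described first. The largest rise was that of Prnd, which encodes doppel, a prion-like protein of endothelial cells. It read 5.50, 5.34 and 5.61 in sham mice and 10.08, 9.69 and 9.83 in MCT+NI mice. The lowest MCT+NI value was thus far above the highest sham value, and the difference was 4.38 with a 95% interval of 4.06 to 4.70, or 20.8-fold (adjusted p = 4.49e-06). Apln, the peptide hormone apelin that sprouting endothelial cells secrete, read 6.28, 6.56 and 6.73 against 10.42, 10.15 and 10.42, a 14-fold rise. Cdkn1a encodes p21, the cyclin-dependent kinase inhibitor through which p53 stops the cell cycle. Its levels were 5.96, 5.71 and 6.33 in sham mice and 9.40, 9.51 and 9.66 in MCT+NI mice, an 11.5-fold rise. Thbs1, or thrombospondin 1, a secreted matrix-bound protein that frees TGF-beta from its latent form and restrains vessel growth, read 5.12, 4.96 and 5.20 against 8.16, 8.18 and 8.02, an 8.15-fold rise. Ccnd1, the cyclin that drives cells through G1, read 7.78, 7.51 and 7.63 against 10.50, 10.29 and 10.54, a 7-fold rise. In these 5 genes the spread within a group was small beside the step between groups.

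The next rises in size were Ch25h (2.56), which makes 25-hydroxycholesterol, Scn3b (2.31), a sodium channel beta subunit, Rgs16 (2.30), which shortens G-protein signals, and Cd109 (2.29), a surface protein that binds TGF-beta. Meox1, a homeobox factor of activated fibroblasts, rose by 2.17 and with Prnd, Thbs1, Cdkn1a and Apln had the smallest p-values. Nes, the intermediate filament nestin of dividing and sprouting cells, read 5.84, 5.75 and 5.86 in sham mice and 7.94, 7.79 and 8.03 in MCT+NI mice. Of similar size were the rises of the predicted gene Gm10825 (2.15), the proliferation antigen Mki67 (2.10), the leukotriene C4 synthase Ltc4s (2.07) and the ectodysplasin receptor Eda2r (2.05). Each of these 15 rises was called with the atrial covariate and in every fit that left out 1 mouse, and the highest adjusted p among those fits was 0.031, for Mki67 without mouse 619.

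The largest falls in the same set were less stable. By size they were Aldh3b2 (-2.26), Adh1 (-2.21), Car4 (-2.19), Timp4 (-1.88), Sbk2 (-1.77), Aqp1 (-1.59), Igfbp3 (-1.40), Smoc1 (-1.30), Cntfr (-1.26), Erbb4 (-1.24), Kcnj3 (-1.22), Ahr (-1.21), Ptgfr (-1.19), Zfp579 (-1.14) and Cyp2d22 (-1.14). Of these 15, 4 were called with the atrial covariate: Car4, Timp4, Erbb4 and Ahr. Only 6 kept the call in every fit that left out 1 mouse, these 4 with Adh1 and Aqp1. For the other 9 the highest adjusted p of these fits, each time without mouse 619, lay between 0.057 (Igfbp3) and 0.171 (Sbk2 and Cntfr). Without mouse 619 and likewise without sham mouse 624, 6 of the 15 were called. Kcnj3 is an atrial potassium channel subunit and was itself on the atrial list. In the MCT mouse with high atrial signal, 644, Sbk2 read 7.16, inside the sham span of 7.09 to 7.78, while the other MCT mice read 5.67 and 5.16.

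**Figure D2:**
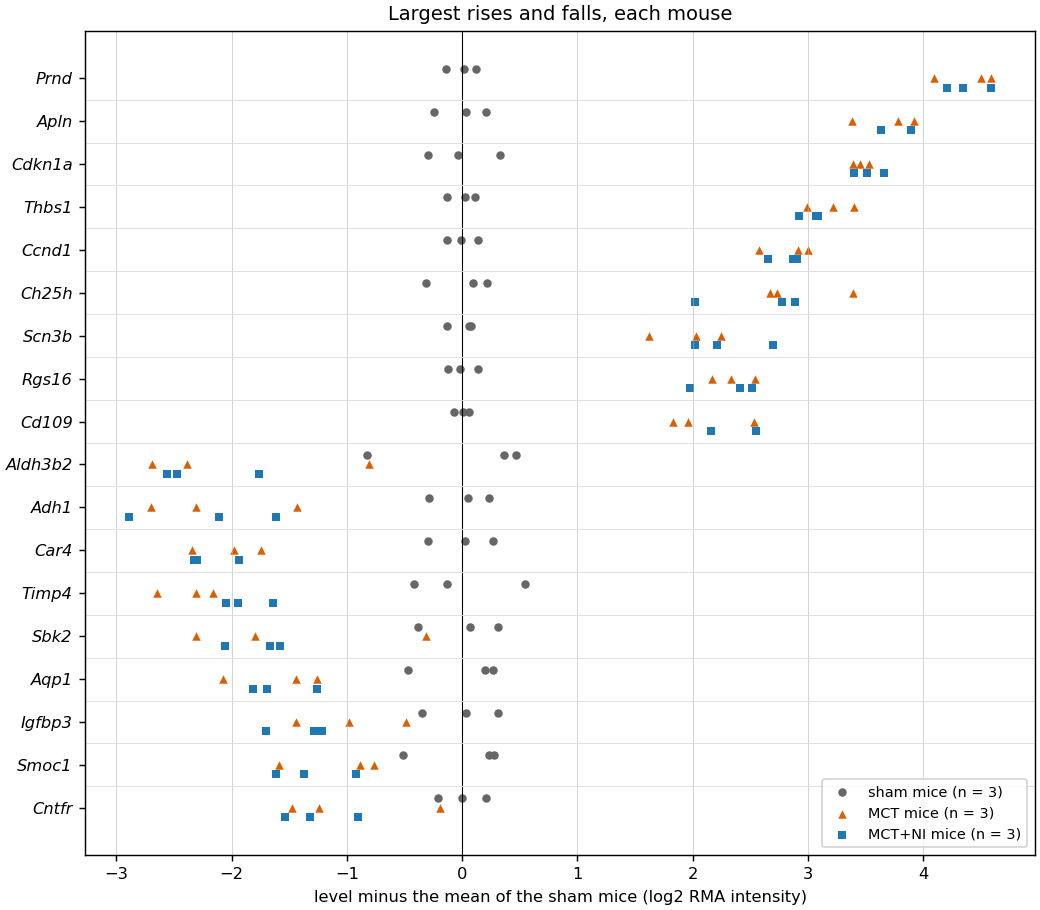
Level of each mouse minus the mean of the 3 sham mice (horizontal axis, log2 RMA intensity) for the 9 largest rises and 9 largest falls among called genes at or above the median gene, with sham mice as grey circles, MCT mice as orange triangles and MCT+NI mice as blue squares. All MCT+NI squares of the rises lie well right of the sham circles and beside the MCT triangles. Among the falls, Aldh3b2, Sbk2 and Cntfr have 1 MCT triangle close to the sham circles, while Car4 and Timp4 do not.

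Car4 and Ahr were the firmest of the falls. Car4, a carbonic anhydrase on the surface of capillary endothelium that speeds the release of carbon dioxide, read 7.88, 7.31 and 7.63 in sham mice and 5.67, 5.28 and 5.30 in MCT+NI mice. This was a fall to 0.22 of the sham level (adjusted p = 0.000316, and 0.00647 with the atrial covariate). Ahr, the receptor for dioxins and dietary indoles, read 6.72, 6.80 and 6.73 against 5.69, 5.55 and 5.40 (adjusted p = 0.000198). Timp4, the heart's own inhibitor of matrix metalloproteases, read 7.03, 6.35 and 6.06 against 4.43, 4.84 and 4.53, with sham values that were more spread. Erbb4, the receptor through which neuregulin acts on heart muscle, read 7.43, 7.94 and 7.80 against 6.57, 6.61 and 6.25. Aqp1, the water channel of capillaries, read 9.44, 9.51 and 8.77 against 7.98, 7.43 and 7.55, and its adjusted p went from 0.00726 to 0.111 with the atrial covariate. Adh1, an alcohol and retinol dehydrogenase, read 8.10, 8.62 and 8.43 against 6.28, 6.77 and 5.49, with an adjusted p of 0.00878 that likewise became 0.111.

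Genes that p53 switches on rose as a group. Of 27 measured, 18 (66.7%) were called higher and none lower, against 4.52% and 1.75% of all genes. Their median difference was 0.83, against -0.02 over all genes, and their medians in mice 615, 617 and 619 were 0.90, 0.73 and 0.82 above the sham mean. With the atrial covariate 11 were called and the median was 0.67. After Cdkn1a, the smallest p belonged to Phlda3, which holds back AKT at the membrane. It read 5.80, 5.76 and 5.72 in sham mice and 7.22, 7.35 and 7.35 in MCT+NI mice (2.92-fold). Gtse1, a protein of G2 and S phase that binds p53, read 4.06, 3.71 and 3.69 against 5.60, 5.92 and 5.76 (3.83-fold). Eda2r, a death-domain receptor, read 5.15, 4.74 and 5.03 against 6.94, 7.18 and 6.95 (4.15-fold). In each of these genes no MCT+NI mouse came near the sham mice. Mdm2, the ligase that degrades p53, rose only 1.29-fold (8.44, 8.35 and 8.36 against 8.68, 8.72 and 8.84). Other targets did not pass. Ccng1, cyclin G1, had a difference of 0.09 with an interval of -0.02 to 0.21, and Sesn1 one of -0.17 with an interval of -0.45 to 0.10, whereas its relative Sesn2 rose 2.77-fold. Fas, the death receptor, had a difference of 0.02 (-0.28 to 0.32). Of 20 genes of the Fanconi pathway, which repairs the crosslinks that MCT pyrroles leave in DNA, 2 were called higher. They were the helicase Brip1 (2.13-fold) and Atad5 (1.25-fold, with an adjusted p of up to 0.093 when 1 mouse, here 619, was left out). The median of this group was 0.04, and neither was called with the atrial covariate.

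Cell division genes rose beside the inhibitor p21. Of 25 mitosis genes, 16 (64%) were called higher and none lower, with a median difference of 1.16. When only genes at or above the median gene were tested, members below that level dropped out and 4 mitosis genes were called higher. Of 21 DNA replication genes 7 (33.3%) were called higher and none lower, with a median of 0.28, and all 21 had a positive difference. With the atrial covariate 10 and 2 were called, while the median differences were 1.37 and 0.37, no smaller than without it. Mki67 read 4.65, 4.29 and 4.40 in sham mice and 7.13, 5.84 and 6.67 in MCT+NI mice. Tpx2, which builds the spindle, read 4.70, 4.35 and 4.41 against 6.04, 5.63 and 5.76, and Anln, the scaffold of the cleavage furrow, 4.14, 3.75 and 4.34 against 6.12, 5.43 and 5.85. Top2a, the topoisomerase that untangles chromosomes, read 4.58, 3.97 and 4.34 against 6.04, 5.72 and 6.25. The 3 MCT+NI mice did not respond alike. The median of the mitosis genes over the sham mean was 1.48 in mouse 615, 0.75 in mouse 617 and 1.25 in mouse 619, so mouse 617 was lowest, though above the sham range of -0.14 to 0.11. The replication genes showed the same order, at 0.46, 0.24 and 0.34. Without mouse 617 the mitosis genes called numbered 19, and without mouse 619 the replication genes called numbered 4. Among replication genes the ribonucleotide reductase subunit Rrm1 rose 1.37-fold and the helicase subunit Mcm3 1.77-fold. Among 19 genes of G1, Ccnd1, Ccnd3 and the transcription factor E2f1 (1.70-fold, adjusted p = 0.0145, and 0.066 without mouse 619) were called higher, and Ccnd3 (1.47-fold) reached 0.075 without the same mouse. The kinase inhibitors Cdkn1c (p57) and Cdkn1b (p27) were called lower. With the atrial covariate 1 of these rises and 1 of these falls were called. Cdkn1c read 6.56, 6.64 and 6.55 against 5.71, 5.69 and 5.30, and Cdkn1b 8.00, 7.88 and 8.11 against 7.62, 7.58 and 7.64. The Cdkn1 family thus moved in both directions, p21 up 11.5-fold and p57 down to 0.50 of sham.

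Promoters of the mitosis, DNA replication and p53 target lists were set beside those of all measured genes, for sites that such genes are known to carry. Promoters of the other lists were not examined. Sequences were taken from RefSeq (GRCm38.p6), 250 bases before to 50 bases after the first listed start of 14749 measured genes. The cell cycle homology region, a site of the DREAM complex through which p21 and the RB family restrain mitosis genes, was searched as TTTGAA on both strands. It was found in 18 of 22 mitosis promoters (81.8%) against 15.1% of all promoters. CCAAT was found in 18 of 22 mitosis promoters, in 15 of 18 DNA replication promoters (83.3%) and in 55% of p53 target promoters, against 38.3% of all. E2F letters (TTTGGCGC, TTTCGCGC or TTCCCGCC on either strand, of which the first pair can overlap) were found in 10 of 18 DNA replication promoters (55.6%) and in 4.23% of all. The decamer of the p53 response element was found in 7 of 20 promoters of p53 target genes (35%) and in 7.23% of all. These are matches of letters, and no binding was measured. The shares cover all members with a promoter, called or not, so they describe the lists and not the rises. The following are called members that hold the letters in the 200 bases before the listed start. Stretches were cut where a longer transcript begins, and the matches are in capitals. Not every called member was eligible for printing, so the members shown need not be those with the largest rises.

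Mki67, chr7:135716451-135716579, minus strand, TTTGAA: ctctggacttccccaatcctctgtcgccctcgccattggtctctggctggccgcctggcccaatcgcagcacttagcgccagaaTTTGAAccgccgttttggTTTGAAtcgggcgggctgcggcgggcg
Top2a, chr11:99024200-99024389, minus strand, TTTGAA or its complement: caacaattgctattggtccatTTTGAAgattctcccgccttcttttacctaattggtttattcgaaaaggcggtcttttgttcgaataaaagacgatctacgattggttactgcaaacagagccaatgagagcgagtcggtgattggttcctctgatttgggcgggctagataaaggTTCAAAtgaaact
Ccnb2, chr9:70421555-70421754, minus strand, TTTGAA: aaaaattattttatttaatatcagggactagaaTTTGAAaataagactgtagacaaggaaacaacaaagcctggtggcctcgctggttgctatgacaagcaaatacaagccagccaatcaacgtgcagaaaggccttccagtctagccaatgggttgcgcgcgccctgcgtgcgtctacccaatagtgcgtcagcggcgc
Mcm5, chr8:75109309-75109467, plus strand, E2F letters: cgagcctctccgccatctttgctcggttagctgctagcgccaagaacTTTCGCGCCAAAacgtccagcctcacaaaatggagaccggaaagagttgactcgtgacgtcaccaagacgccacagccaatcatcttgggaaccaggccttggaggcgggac
Mcm6, chr1:128359706-128359905, minus strand, E2F letters: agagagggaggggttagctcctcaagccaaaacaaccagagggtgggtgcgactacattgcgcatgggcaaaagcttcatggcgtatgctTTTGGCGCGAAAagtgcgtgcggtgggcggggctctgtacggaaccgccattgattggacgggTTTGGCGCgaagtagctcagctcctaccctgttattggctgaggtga
Cdkn1a, chr17:29090779-29090978, plus strand, p53 decamers: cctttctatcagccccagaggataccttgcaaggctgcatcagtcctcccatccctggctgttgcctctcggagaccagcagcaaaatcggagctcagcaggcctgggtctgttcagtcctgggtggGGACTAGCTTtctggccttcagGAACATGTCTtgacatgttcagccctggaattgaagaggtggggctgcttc
Mdm2, chr10:117710759-117710958, minus strand, p53 decamer: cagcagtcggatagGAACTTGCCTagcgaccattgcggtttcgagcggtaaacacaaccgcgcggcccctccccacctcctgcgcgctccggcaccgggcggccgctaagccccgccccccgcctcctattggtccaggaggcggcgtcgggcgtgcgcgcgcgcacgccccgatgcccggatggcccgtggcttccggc

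The genes with these promoters rose to different degrees: Mki67 4.29-fold, Top2a 3.27-fold, Ccnb2 2.40-fold, Mcm5 1.68-fold, Mcm6 1.45-fold, Cdkn1a 11.5-fold and Mdm2 1.29-fold. In Mki67 the 2 matches begin 116 and 98 bases before the listed start, and in Cdkn1a 73 and 51 bases before it. Only the first listed start of each gene was used, so distances to any other start are not given. Mcm5 was called with an adjusted p of 0.0123 and reached 0.059 without mouse 619.

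Many genes of endothelial sprouting rose in the whole tissue. Tip cells lead a new vessel sprout and carry apelin, endocan and receptors for guidance cues. Of 22 tip cell and sprouting genes 11 (50%) were called higher and 2 lower, with a median of 0.44, and 7 rises and 1 fall were called with the atrial covariate. Beside Prnd and Apln, the VEGF co-receptor Nrp2 read 7.30, 7.25 and 7.27 in sham mice and 8.63, 8.31 and 8.56 in MCT+NI mice (2.35-fold). Mcam, an adhesion molecule of endothelium and pericytes, read 7.74, 7.77 and 8.04 against 9.26, 8.95 and 9.23 (2.46-fold). Esm1, or endocan, rose 4.19-fold from a low level, and the apelin receptor Aplnr rose 1.93-fold. The lower genes were Igfbp3, a binding protein of insulin-like growth factors (adjusted p = 0.0118, and 0.057 without mouse 619), and Rgcc, a regulator of the cell cycle in endothelium (-0.54). Among the VEGF family, Pgf (placental growth factor) was called higher (1.79-fold, adjusted p = 0.0197, and 0.080 without mouse 615), whereas Vegfa had a difference of 0.17 with an interval of -0.16 to 0.50. The Notch ligand Dll4, made by tip cells, had a difference of -0.14 with an interval of -0.38 to 0.10.

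The angiopoietins moved apart. Angpt2, the antagonist released by activated endothelium, read 5.57, 5.71 and 5.61 in sham mice and 6.89, 6.77 and 6.85 in MCT+NI mice (2.31-fold). Angpt1, the stabilising ligand, read 9.57, 9.80 and 9.91 against 8.53, 8.96 and 8.49, a fall to 0.47 of sham (adjusted p = 0.00812, and 0.12 with the atrial covariate). Angpt1 was chosen after its values had been seen. Their receptor Tek read 8.21, 8.27 and 8.59 against 7.96, 7.46 and 7.80 (adjusted p = 0.0348, not called in 7 of the 9 fits with 1 mouse left out and at most 0.10 in them, without sham mouse 625).

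Genes that define endothelium rose in part. Of 20, 8 (40%) were called higher and 2 lower. Cdh5, the cadherin of endothelial junctions, read 10.01, 9.82 and 9.98 against 10.73, 10.61 and 10.79 (1.71-fold). Pecam1 rose 1.64-fold, the guidance receptor Robo4 2.14-fold and the transcription factor Erg 1.76-fold. Flt1, the decoy receptor for VEGF, fell to 0.60 of sham, from 8.62, 8.69 and 8.67 to 8.07, 7.87 and 7.84, while Tie1 and Eng had differences of -0.08 each. The list was thus not moved as a block, and its median was 0.13. Of 20 SoxF, Notch and arterial genes 4 were called higher and 1 lower. Sox18, which specifies vessels, read 7.03, 6.99 and 6.97 against 7.90, 7.92 and 7.85 (1.86-fold), and its level in MCT+NI mice was also above that in MCT mice by 0.21 with a 95% interval of 0.12 to 0.31, although that difference was not called over all genes (adjusted p = 1). Its relative Sox17 had a difference of -0.15 (-0.46 to 0.17). Without sham mouse 625, and likewise with the atrial covariate, the count of higher genes in this list was 2.

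Transport genes of the capillary changed in both directions. Of 18, 6 (33.3%) were called higher and 4 (22.2%) lower, and the lower ones were Car4, Timp4, Aqp1 and Rgcc. Cav1, the coat protein of caveolae, read 10.01, 9.93 and 9.94 in sham mice and 10.51, 10.46 and 10.51 in MCT+NI mice (1.45-fold), and Cav2 rose 1.57-fold. Among genes of fatty acid uptake, Fabp5, a binding protein, was called higher (1.55-fold, adjusted p = 0.04, and 0.136 without mouse 619), and others were not called. Cd36, which takes fatty acids into endothelium and muscle, had a difference of -0.02 with an interval of -0.17 to 0.12, Fabp4 of 0.07 with an interval of -0.18 to 0.33, and lipoprotein lipase Lpl of 0.06 with an interval of -0.05 to 0.18. Gpihbp1, which anchors that lipase, rose 1.67-fold (adjusted p = 0.021, and 0.082 without sham mouse 624). Without mouse 619 the number of higher genes was 3, and with the atrial covariate 2. Among 18 adhesion and coagulation genes 6 were called higher and none lower. Icam2, an adhesion molecule of resting endothelium, read 6.96, 6.96 and 7.10 against 8.06, 8.02 and 8.13 (2.09-fold). The plasminogen activators Plau and Plat, which start the dissolving of clots and matrix, rose 3.03-fold and 2.07-fold.

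Several groups of matrix genes rose, those of the basement membrane most firmly. Of 17 basement membrane genes 9 (52.9%) were called higher and none lower, with a median of 0.64, and the same count of 9 was called without each single mouse and 8 with the atrial covariate. Col4a1, the main collagen chain beneath endothelium, read 6.97, 6.79 and 7.20 in sham mice and 8.89, 8.48 and 8.83 in MCT+NI mice (3.35-fold). Col4a2, its partner, rose 3.03-fold, perlecan (Hspg2) 1.82-fold and the laminin chain Lamc1 1.56-fold. Mouse medians of this group were 0.73, 0.57 and 0.63 for 615, 617 and 619, close to each other.

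Collagens of the interstitium rose less firmly. Of 14 fibrillar and fibril-associated collagens 7 (50%) were called higher and none lower, with a median of 0.54, but none was called with the atrial covariate, at a median difference of 0.57. Col6a1 read 7.77, 7.48 and 7.94 against 8.63, 8.41 and 8.48 (1.71-fold, adjusted p = 0.00467, and 0.073 with the covariate). Col1a2, a chain of the main fibrillar collagen, read 7.97, 7.71 and 7.97 against 8.69, 8.37 and 8.37 (1.51-fold). Col3a1 was just outside, at 7.52, 7.40 and 8.11 against 9.01, 8.11 and 8.73 (adjusted p = 0.0616), and here the lowest MCT+NI value met the highest sham value. Of 24 matricellular and elastic fibre genes 7 (29.2%) were called higher, and 4 without mouse 615 or without mouse 619. Sparc, a collagen-binding protein, read 10.32, 10.17 and 10.43 against 11.80, 11.68 and 11.72 (2.69-fold). Fn1, fibronectin, read 7.99, 8.14 and 8.31 against 9.74, 9.29 and 9.51 (2.58-fold). Of 27 matrix enzymes and inhibitors 6 were called higher and 1, Timp4, lower. Mmp2, a gelatinase, rose 2.32-fold, the protease Adamts9 2.00-fold and the crosslinking enzyme Loxl2 2.30-fold, whereas Lox had a difference of 0.04 (-0.20 to 0.27). Of 26 integrins and focal adhesion genes 12 (46.2%) were called higher and none lower, and 4 with the atrial covariate, at medians of 0.31 and 0.35. The laminin receptor subunit Itga6 read 7.50, 7.56 and 7.69 against 8.58, 8.50 and 8.71 (2.02-fold), and Itga2, a collagen receptor subunit, rose 2.67-fold. Proteoglycans stood near the other genes, with a median of -0.01, 7 positive and 7 negative differences and 2 of 14 called higher, Vcan and Cspg4 (1.59-fold), of which 1 was left without mouse 615 or 619, without any 1 of the sham mice or without MCT mouse 640. With the atrial covariate 4 were called higher.

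**Figure D3:**
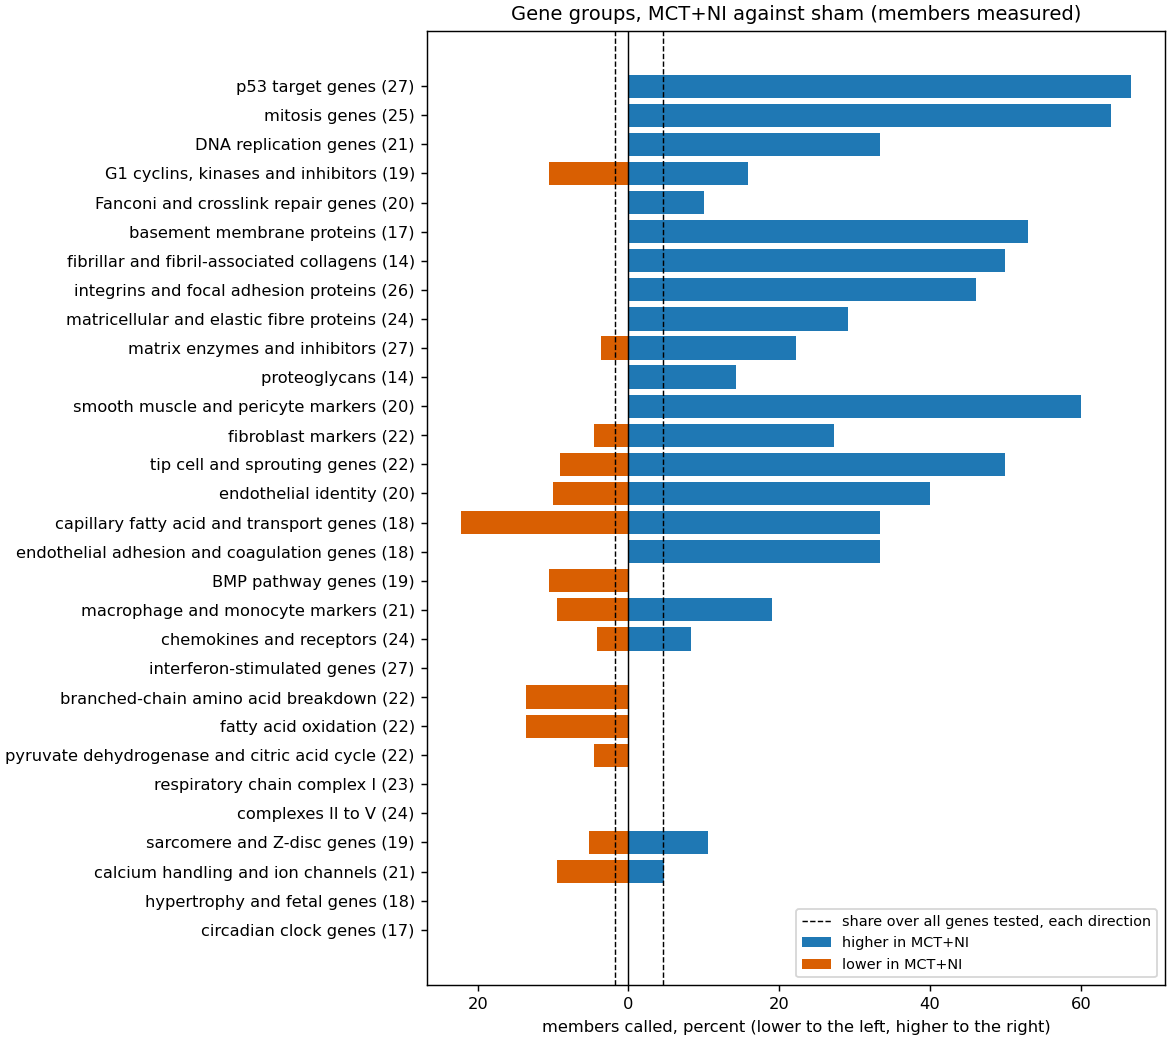
Share of the measured members of 30 gene groups that were called higher (blue, to the right) or lower (orange, to the left) in MCT+NI against sham mice, in percent, with the number measured in brackets and dashed lines at the shares over all genes (4.52% and 1.75%). The p53 target (66.7%) and mitosis genes (64%) have the longest bars, and the respiratory chain, interferon, hypertrophy and clock groups have none.

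Markers of mural cells and fibroblasts followed. Of 20 smooth muscle and pericyte markers 12 (60%) were called higher and none lower, with a median of 0.45 and mouse medians of 0.49, 0.42 and 0.42. With the atrial covariate 5 were called. Vtn, vitronectin, which pericytes make, read 7.54, 7.53 and 7.70 in sham mice and 9.23, 8.97 and 9.24 in MCT+NI mice (2.95-fold). Rgs5, a pericyte regulator of G-protein signals, read 10.38, 10.16 and 10.13 against 10.99, 10.95 and 11.03 (1.70-fold), and Acta2, smooth muscle actin, rose 1.54-fold. Markers of contractile smooth muscle differed: Smtn, smoothelin, was called at 1.13-fold (adjusted p = 0.0241, and 0.083 without mouse 619), while Myh11 had a difference of 0.19 and Cnn1 one of -0.45, neither of them called. Of 22 fibroblast markers 6 (27.3%) were called higher and 1 lower, and 3 higher without mouse 615 or with the atrial covariate. Higher were Meox1, Col1a1, Pdgfrb, Ddr2, Dpep1 and Postn (1.98-fold, adjusted p = 0.0258, and 0.097 without sham mouse 624), of which Ddr2 (0.057 without mouse 615) and Dpep1 (0.173 without mouse 619) also lost their calls. Lower was Cilp2 (0.36 of sham, adjusted p = 0.0367, and 0.125 without mouse 619). Among those not called, Dcn had a difference of 0.01 with an interval of -0.17 to 0.19, Tcf21 of -0.18 (-0.41 to 0.05) and Pdgfra of -0.32 (-0.59 to -0.05, adjusted p = 0.177).

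The study measured Adamts1, Vcan, Col14a1, Tgfb1i1, Tnf and Ptgs2 also by qRT-PCR. By qRT-PCR it reported higher Vcan, Adamts1, Col14a1 and Tgfb1i1 in MCT than in sham mice. Vcan, Adamts1 and Col14a1 were reported lower with MCT+NI than with MCT, and the change of Tgfb1i1 was not significant. Of the genes it measured, 2 were called here on the arrays by adjusted p, whereas the study's array thresholds were unadjusted. Vcan, the large proteoglycan versican, read 6.60, 6.28 and 6.71 in sham mice, 7.41, 6.91 and 7.37 in MCT+NI mice and 7.77, 7.43 and 7.73 in MCT mice. MCT+NI mice thus lay above sham by 0.70 (0.33 to 1.06, adjusted p = 0.0366) and below MCT mice by a difference of -0.42 (-0.78 to -0.05). Tgfb1i1, a focal adhesion protein induced by TGF-beta, read 7.43, 7.37 and 7.59 in sham mice against 7.78, 7.75 and 7.86 with MCT+NI and 7.94, 8.14 and 8.06 with MCT. Its difference from sham was 0.33 (0.17 to 0.49, limma adjusted p = 0.0258) and from MCT mice -0.25 (-0.41 to -0.09). The intervals against MCT mice are not adjusted over all genes, and neither gene was called in that comparison. Both calls against sham were lost without single mice, Vcan in 7 and Tgfb1i1 in 4 of the 9 fits. Without mouse 619 the limma adjusted p was 0.14 for Vcan and 0.11 for Tgfb1i1. Adamts1, a protease that cuts versican, read 6.69, 6.79 and 6.64 against 6.96, 6.91 and 6.94, groups that did not overlap although the adjusted p was 0.0748, and 7.15, 7.15 and 7.32 in MCT mice. Col14a1, a collagen on fibril surfaces, had a difference from sham of 0.23 (-0.05 to 0.52). Tnf, the cytokine, differed from sham by 0.26 (-0.15 to 0.68) and Ptgs2, cyclooxygenase 2, by -0.94 (-1.54 to -0.34, adjusted p = 0.0796).

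Lists of heart muscle cell genes differed in the share called. Of 18 hypertrophy and fetal genes none was called, where 6.26% of all genes were. Their median was -0.02. Without mouse 617, 3 were called higher, and 1 without mouse 615 or with the filter at the median gene. Nppb, brain natriuretic peptide, read 7.67, 9.40 and 9.18 in sham mice and 10.24, 6.97 and 8.77 in MCT+NI mice, groups that overlapped (difference -0.09, interval -2.00 to 1.81). Myh7, the slow myosin of the fetal heart, had a difference of 0.11 (-0.42 to 0.64). Acta1, skeletal actin, read 6.99, 7.37 and 6.62 against 9.85, 7.85 and 8.25, without overlap but with an adjusted p of 0.0635. Of 19 sarcomere and Z-disc genes 2 (10.5%) rose and 1 (5.26%) fell, against 4.52% and 1.75% of all genes. The rises were Pdlim5, a Z-disc adaptor (1.20-fold), and Tnnc1, cardiac troponin C (1.11-fold, and limma adjusted p = 0.066 without mouse 615). The fall was Myom2 of the M-band (0.75 of sham, and limma adjusted p = 0.096 without sham mouse 624). Of 21 calcium and ion channel genes 1 (4.76%) was higher and 2 (9.52%) were lower. The lower ones were Kcnj3 and Kcnd3 (limma adjusted p = 0.0127, and 0.059 without mouse 619), and no call in this list was left with the atrial covariate. Of 15 adrenergic and cyclic AMP genes 4 (26.7%) were called higher and 1 lower, with a median of -0.04, and 3 rises were called with the atrial covariate. They were the G-protein regulators Rgs4 (1.67-fold) and Rgs5, which pericytes also express, the inhibitory G-protein subunit Gnai2 (1.32-fold) and the phosphodiesterase Pde4b (1.18-fold, adjusted p = 0.0488, and 0.168 without mouse 619). Its relative Pde4d fell to 0.85 of sham (adjusted p = 0.0279, and 0.10 without mouse 615). Of 18 muscle wasting genes none was called and the median was -0.05.

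Energy genes lay near sham. Of 23 complex I genes none was called (median 0.01), and their differences ran from -0.06 (Ndufv1) to 0.14 (Ndufb3). Of 24 genes of complexes II to V none was called (median -0.01). Ndufs1 read 10.54, 10.48 and 10.50 in sham mice against 10.45, 10.48 and 10.47 in MCT+NI mice. The difference was -0.04 with an interval of -0.11 to 0.04, and Cox7a1 differed by -0.02 (-0.11 to 0.08). Members of lists without calls were named by small p or narrow interval, so these widths do not stand for the lists. In MCT mice the list medians were -0.08 and -0.06. Set against MCT mice, MCT+NI mice had a median difference of 0.10 for complex I and 0.05 for the other complexes. The intervals lay above 0 for Ndufs1 (0.02 to 0.17) and Ndufb5 (0.03 to 0.16). These intervals are not adjusted over all genes, and neither gene was called against MCT mice.

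Fatty acid oxidation was lower by small amounts. Of 22 genes 21 had a negative difference and 3 (13.6%) were called lower, with a median of -0.12. Acaa2, the last step of beta-oxidation, read 11.53, 11.34 and 11.50 in sham mice and 11.18, 11.22 and 11.17 in MCT+NI mice (0.83 of sham, adjusted p = 0.0179). The other 2 were Crat (0.87 of sham, adjusted p = 0.0262), which handles short acyl groups, and Decr1 (0.84 of sham, adjusted p = 0.0336), for unsaturated fatty acids. None was called without mouse 615, without mouse 619, without sham mouse 620 or without sham mouse 625. In MCT mice the median was -0.20 with 5 called lower. Of 22 genes for the breakdown of branched-chain amino acids, among them leucine, which the diet supplied, 21 had a negative difference and 3 were called lower, with a median of -0.15. Ppm1k, the phosphatase that switches the breakdown on, read 9.38, 9.33 and 9.27 against 8.82, 8.94 and 8.78 (0.72 of sham, adjusted p = 0.00391), and Bckdk, the kinase that switches it off, fell to 0.87 of sham (adjusted p = 0.0423, and 0.15 without mouse 619). The third was Mmut, methylmalonyl-CoA mutase (0.86 of sham, adjusted p = 0.027, and 0.086 without sham mouse 625). The count ranged from 1 to 5 over the fits that left out 1 mouse and was 5 without mouse 617, whose median of -0.07 was nearest to sham. With the atrial covariate 1 was called lower, at a median of -0.18. In MCT mice 8 were called lower. Of 22 citric acid cycle genes 1 was called lower, the kinase Pdk2 (0.87 of sham, and adjusted p = 0.068 without mouse 619).

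Shares called also differed among genes that sense nutrients. Of 18 PPAR target genes, which fish oil fatty acids can activate, 1 (5.56%) was called higher, near the 4.52% of all genes. It was the lipase Mgll (1.61-fold), and the median of the list was -0.05. Of 21 amino acid response and mTOR genes 3 (14.3%) were called higher. They were Sesn2, the leucine transporter Slc7a5 (1.71-fold) and the asparagine synthetase Asns (1.52-fold, and limma adjusted p = 0.085 without mouse 619). Sesn2 is also a p53 target and was counted in both lists. Of 10 ketone body and monocarboxylate genes, 1 was called higher and 2 (20%) lower, against 4.52% and 1.75% of all genes. Differences were positive in 5 and negative in 5, and none was called with the atrial covariate. Bdh1, which makes and uses ketone bodies, read 7.26, 6.78 and 6.82 in sham mice and 8.07, 8.02 and 8.11 in MCT+NI mice. This was a 2.17-fold rise (limma adjusted p = 0.00484). Bdh1 lay above MCT mice by 0.48 with an interval of 0.10 to 0.86. That interval is not adjusted over all genes, and the difference from MCT mice was not called.

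Immune genes varied between mice. Of 21 macrophage and monocyte markers 4 were called higher and 2 lower. The efferocytosis receptor Mertk read 6.70, 6.63 and 6.54 in sham mice and 7.22, 7.36 and 7.43 in MCT+NI mice (1.64-fold). Cd163, the haemoglobin scavenger receptor of resident macrophages, read 6.34, 6.10 and 6.15 against 5.44, 5.05 and 4.86, a fall to 0.47 of sham (adjusted p = 0.016, 0.10 with the atrial covariate and 0.071 without mouse 619). The macrophage markers therefore did not move as a block, and mouse medians were 0.39, 0.12 and 0.56. The number of higher markers was 1 without mouse 615 or 619, 2 without sham mouse 620 or 624, and 2 with the atrial covariate. Of 27 interferon-stimulated genes none was called, although all 27 had a positive difference and the median was 0.67. The mouse medians were 0.62 (615), 0.22 (617) and 1.24 (619), against -0.03 to 0.09 in sham mice and -0.04 to 1.32 in MCT mice. Irf7, a transcription factor of this response, read 6.54, 6.43 and 6.53 in sham mice and 8.00, 6.76 and 8.74 in MCT+NI mice, above sham in each but far apart among themselves. MHC class II genes showed medians of -0.23, -0.48 and 1.01, with only mouse 619 above the sham mice, and none of 9 was called.

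**Figure D4:**
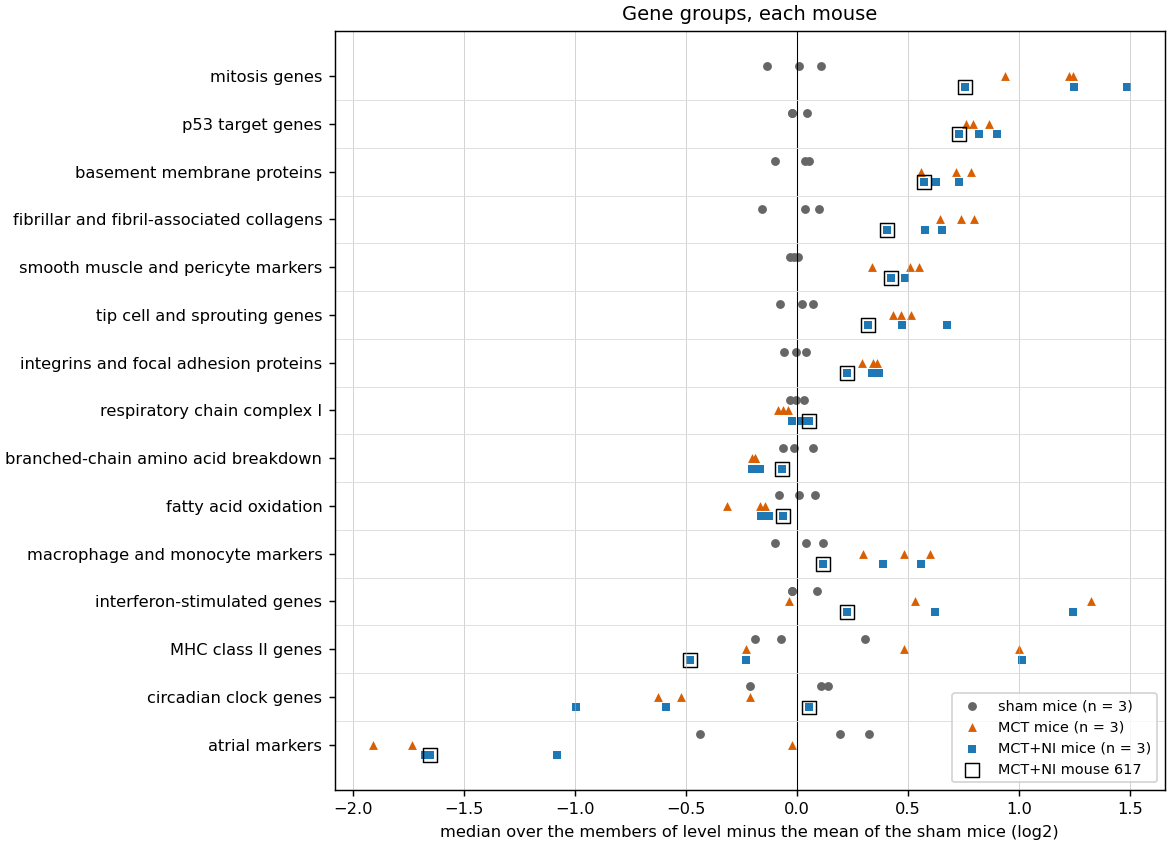
Median over the members of 15 gene groups of the level minus the sham mean (horizontal axis, log2) for each of the 9 mice, with sham mice as grey circles, MCT mice as orange triangles, MCT+NI mice as blue squares and mouse 617 outlined. For p53 targets and basement membrane the 3 squares lie close together (0.73 to 0.90 and 0.57 to 0.73), whereas for interferon-stimulated, MHC class II and clock genes they lie far apart, with mouse 617 near the sham mice for the clock genes (0.05).

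Clock genes set the MCT+NI mice apart from each other. Their median was -0.59 in mouse 615, 0.05 in mouse 617 and -0.998 in mouse 619, and none of 17 was called in the comparison, but 8 were called lower without mouse 617. Per3, a repressor of the clock, read 8.15, 7.94 and 7.40 in sham mice and 6.41, 7.99 and 5.91 in MCT+NI mice 615, 617 and 619. Arntl, the activator that opposes it, read 4.44, 4.93 and 5.72 against 6.71, 4.09 and 7.25. Activator and repressor were thus shifted in opposite directions in mice 615 and 619 and not in mouse 617. Clock levels follow the hour of sampling, which the labels do not give, and its part in the result was not tested.

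Some further rises belonged to none of the lists and were chosen after their values had been seen. Among the annexins, which bind membranes and help to mend them, Anxa2 read 7.04, 6.99 and 7.05 in sham mice and 8.53, 8.27 and 8.61 in MCT+NI mice (2.73-fold), Anxa3 rose 2.60-fold and Anxa1 2.06-fold, whereas Anxa6 had a difference of -0.04 and Anxa11 one of -0.15, neither of them called. Ripk3 and Mlkl, the kinase and pore former of necroptosis, read 4.73, 4.39 and 4.77 against 5.67, 5.85 and 6.07 (2.36-fold) and 5.53, 5.31 and 5.51 against 6.84, 6.46 and 6.81 (2.38-fold). Fscn1, fascin, which bundles actin in protrusions, rose 3.63-fold. Each of the rises among these was called with the atrial covariate and in every fit that left out 1 mouse. Retnla, a marker of alternatively activated macrophages, fell to 0.40 of sham (adjusted p = 0.00628, and 0.10 with the atrial covariate).

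The same genes were read in MCT mice on the control diet. That comparison uses the same 3 sham arrays, so its values are given only side by side. Prnd differed from sham by 4.39 in MCT mice and by 4.38 in MCT+NI mice, Cdkn1a by 3.45 and 3.53, Ccnd1 by 2.83 and 2.81, and Col4a1 by 1.78 and 1.74. The direct difference from MCT mice was small with a narrow interval for each of the largest rises: -0.01 for Prnd (-0.33 to 0.31), 0.11 for Apln (-0.24 to 0.46), 0.07 for Cdkn1a (-0.24 to 0.38), -0.18 for Thbs1 (-0.42 to 0.06) and -0.02 for Ccnd1 (-0.29 to 0.24). For falls the intervals were wider, -1.47 to 0.86 for Aldh3b2 and -0.59 to 0.26 for Car4. Timp4 was highest in relation to MCT mice, at 0.49 (-0.04 to 1.03). Of these 30 genes none had an interval that excluded 0. They were chosen for a large difference from sham in MCT+NI mice, so genes near sham with the diet were left out in advance. Among the genes named outside this set, Vcan and Tgfb1i1 lay below MCT mice and Sox18 and Bdh1 above them. Their unadjusted intervals excluded 0. The array mice were matched for disease severity, and the part of that selection in these similar values was not tested. The list medians were 0.83 in MCT+NI and 0.82 in MCT mice for p53 targets, 1.16 and 1.101 for mitosis genes, 0.64 and 0.69 for basement membrane, 0.54 and 0.72 for the fibrillar collagens, 0.22 and 0.33 for matricellular genes, -0.12 and -0.20 for fatty acid oxidation, and 0.06 and 0.34 for MHC class II genes.

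**Figure D5:**
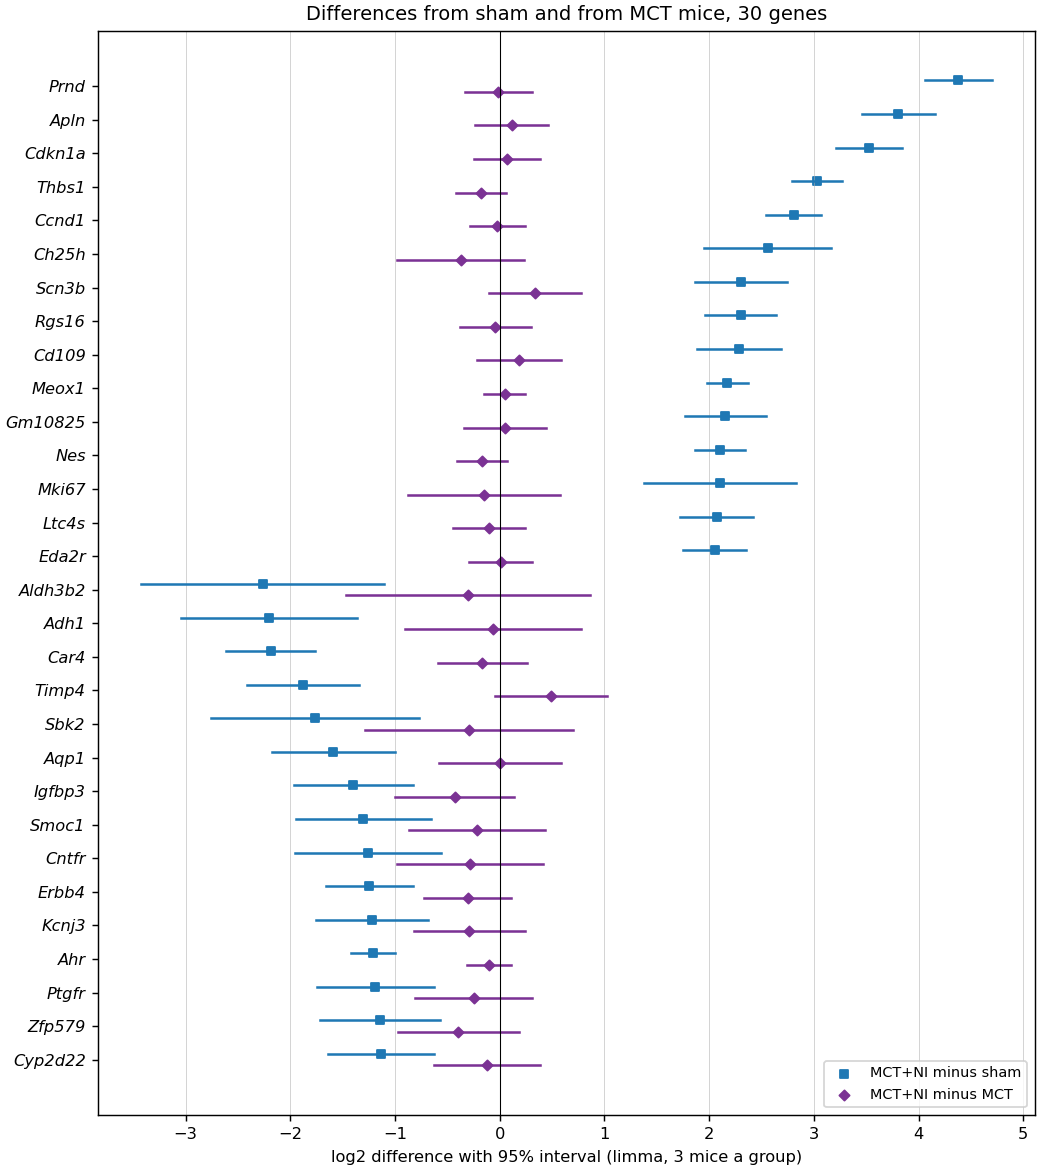
Log2 difference with its 95% interval for the 15 largest rises and 15 largest falls among called genes at or above the median gene, for MCT+NI minus sham mice (blue squares) and for MCT+NI minus MCT mice (purple diamonds), with 3 mice a group. All blue intervals lie away from 0, by the choice of the genes, and all 30 purple intervals include 0. That choice left out genes near sham in MCT+NI mice.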

How the data were processed

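RNA from 9 right ventricles, 3 mice a group, was hybridised to Affymetrix mouse gene 1.1 ST arrays. The deposited values are log2 intensities that the authors made by RMA (background correction, quantile normalization and summary per probe set). The methods name probe sets redefined by Entrez gene, whereas the table carries 35556 probe sets with the manufacturer's numbers. Of these, 21218 were annotated to 1 gene, 1881 to several and 12457 to none. Each of 18820 genes was read from its brightest probe set annotated to that gene alone. For 12042 genes at least 2 of the 9 mice have exactly the same deposited value. Array medians over all probe sets lay between 4.77 and 4.79. Over the genes tested they lay between 5.36 and 5.41 in sham mice and between 5.40 and 5.46 in MCT+NI mice. The number of arrays limits the precision.

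A mean per group was fitted over all 9 arrays with limma 3.58.1 (R 4.3.3, eBayes with an intensity trend), and p-values were adjusted by Benjamini-Hochberg over all genes with a threshold of 0.05. The fit was tested on simulated data. The p-values rest on the spread between mice within groups, pooled over the sham, MCT and MCT+NI arrays and moderated across genes. The MCT arrays thus enter the spread of a comparison they are not in. With the 6 arrays alone 839 genes were called. Alternatives were the 6 arrays alone, no trend, a filter at the median gene, the mean of probe sets, centring, quantile normalization again, the atrial mean as a covariate, unadjusted thresholds and each mouse left out.

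Named genes were the 15 largest called differences per direction without overlap and at or above the median gene, the 5 smallest adjusted p per direction, up to 4 members per list by p, the qRT-PCR genes, and up to 3 members with the narrowest interval in lists without calls. Further list members are named with their values. Anxa1, Anxa2, Anxa3, Ripk3, Mlkl, Angpt1, Fscn1, Cd93, Retnla and Serpina3n were chosen after their values were seen. The comparison and the 59 gene lists (1080 of 1191 symbols matched) were chosen with earlier results of these data known.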

Additional observations from a re-analysis of the deposited data

How the results depend on the processing

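With the atrial mean as a covariate, 401 genes were called (335 higher, 66 lower), and without mice 617 and 619, which leaves mouse 615 as the lone MCT+NI sample, assumed to vary like the other groups, 443 (376 higher, 67 lower). At an unadjusted p under 0.05 the counts were 3674 (1911 higher, 1763 lower), and at 0.01 they were 1828 with 683 lower. The number of lower genes was 216 with the 6 arrays alone and 649 with centring. Leaving out 1 mouse gave 625 to 1183 genes, 507 to 856 of them higher and 118 to 372 lower, with the fewest without mouse 619. Fewer than 200 falls were called without sham mouse 624 (183) or 625 (188), MCT+NI mouse 615 (141) or 619 (118). The other alternatives kept each count within 1.5 times. Of 292 named genes, 154 were called, and no called difference changed sign under any alternative. Without mice 617 and 619, 80 of these calls were lost. The atrial covariate ended 69, leaving out mouse 619 ended 47 and leaving out mouse 615 ended 41. The causes were not tested. No paired analysis was possible because the replicate numbers are mouse numbers and the groups share none.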

Other observations

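Other pathways linked to pulmonary hypertension were set beside all genes, of which 4.52% were called higher and 1.75% lower. Of 17 endothelin, nitric oxide and prostacyclin genes none was called. Of 19 BMP pathway genes none was higher and 2 (10.5%) were lower, and neither with the atrial covariate. They were the ligand Bmp6 and the receptor Bmpr2, which read 10.24, 10.36 and 10.26 in sham mice against 10.09, 10.13 and 9.97 in MCT+NI mice (-0.22, limma adjusted p = 0.0304, and 0.098 without sham mouse 624). Of 9 renin-angiotensin genes 1 was higher and 1 lower (11.1% each). Ace, which makes angiotensin II, read 7.25, 6.77 and 6.97 against 8.07, 7.91 and 7.74, a rise of 0.91 (limma adjusted p = 0.00261), and the mineralocorticoid receptor Nr3c2 had a difference of -0.73 (limma adjusted p = 0.0239), a call lost in 4 of the 9 fits with 1 mouse left out (0.102 without mouse 619). Of 18 TGF-beta ligands, receptors and SMADs 3 (16.7%) were higher and 1 was lower, but none was called with the atrial covariate, and none was higher without sham mouse 620 or 624 or without MCT+NI mouse 615 or 619.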
